A study of Mus musculus with 12 samples.

Results

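The Wnt ligands, their Frizzled receptors and the proteins that relay, restrain or read out the Wnt signal made up 37 of the 770 gene probes measured in 12 samples of mouse liver cancer cells. The members were every probe named Wnt or Fzd with a number (15 ligands and 6 receptors) and 16 further components: *Apc*, *Axin1*, *Axin2*, *Amer1*, *Ctnnb1*, *Lef1*, *Tcf7l1*, *Rnf43*, *Nkd1*, *Wif1*, *Dkk1*, *Dkk2*, *Dkk4*, *Sfrp1*, *Sfrp2* and *Sfrp4*. They were chosen by name and not by their values, although earlier results of these data were known. AKT/NRAS cells came from a hepatocellular carcinoma that arose in a mouse after hydrodynamic injection of myristoylated AKT, flanked by loxP sites, together with NRAS G12V. AKT Cre/NRAS cells were derived from them by transfection of Cre recombinase, which removed AKT and left NRAS G12V, so that NRAS G12V was common to all 4 groups. Each line received a pool of *Dusp4* siRNA or the negative control pool (SCR), received it again after 48 h, and was harvested 24 h later, with 3 biological replicates in each group. Each line stands for itself alone, since 1 parental and 1 derived line were measured, and the removal of AKT cannot be told apart from any other difference between them.

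Wnt proteins are secreted lipid-modified ligands that bind Frizzled receptors together with the co-receptors LRP5 and LRP6. Without a ligand, a destruction complex built on APC and AXIN marks β-catenin, the product of *Ctnnb1*, for degradation, whereas in the presence of a ligand β-catenin accumulates and joins TCF/LEF factors on DNA. In the liver the pathway is known for setting the zonation of hepatocytes around the central vein, and *CTNNB1* is among the genes most often mutated in hepatocellular carcinoma. Most of this regulation acts on proteins, which the panel does not measure.

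NanoString® counts single RNA molecules by a barcode, and the recovered counts of the genes above the floor totalled between 641790 and 1081646 in a sample. The deposited values are counts scaled to the positive controls, with everything at or under 20 set to 20, which is called the floor here. Levels below are normalized counts, that is, the deposited values scaled to 15 reference genes, with a common floor of 27.1. *Dusp4*, which encodes a phosphatase of MAP kinases, was lower after siRNA in AKT/NRAS (log2 fold change -1.73, limma adjusted p = 1.13e-06) and in AKT Cre/NRAS (-0.45, limma adjusted p = 0.0178). The second fall was 0.001 with the 5 reference genes ranked first and was not past the threshold with the values as deposited (-0.54, limma adjusted p = 0.370). The 3 AKT Cre/NRAS SCR libraries stood apart in the log2 ratio of *Rpl19* to *Polr2a*, which was 5.48, 6.36 and 6.88 in them, 4.72 to 5.03 in AKT Cre/NRAS siRNA and 3.81 to 3.92 in AKT/NRAS. The part of this spread in the results that use those libraries was not tested. The hepatocyte marker *Ghr* was above the floor throughout, at 39.6 to 75.5 in AKT/NRAS and 692 to 791 in AKT Cre/NRAS. The summed level of the biliary or progenitor markers *Sox9*, *Prom1* and *Spp1* was 15321 to 19906 in AKT/NRAS and 101972 to 161827 in AKT Cre/NRAS, almost all of it *Spp1*. The myeloid marker *Csf1r* was at the floor in all 12 samples, as were 3 of 5 stromal markers and the endothelial marker *Kdr*. Summed over the measured markers, the stromal level was 60.7 to 104 in AKT/NRAS and 269 to 513 in AKT Cre/NRAS. This difference lay in *Pdgfra*, at 30.8 to 63.8 and 235 to 468, while *Col1a1* overlapped, at 27.1 to 40.6 and 27.1 to 47.5. The endothelial level, from *Flt1*, was 933 to 1402 in AKT/NRAS and 239 to 495 in AKT Cre/NRAS. The part of these marker differences in the line comparisons was not tested.

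Much of the pathway was below detection. In all 12 samples, 17 of the 37 members were at the floor (45.9%), whereas 219 of all 770 genes were (28.4%). The silent ligands were *Wnt1*, *Wnt2*, *Wnt2b*, *Wnt3*, *Wnt3a*, *Wnt5a*, *Wnt5b* and *Wnt10b*, which made 8 of 15. Among the receptors, *Fzd9* was at the floor throughout, which made 1 of 6. The other 8 were the secreted antagonists *Dkk1*, *Dkk2*, *Dkk4*, *Sfrp1*, *Sfrp2* and *Sfrp4*, the feedback inhibitor *Nkd1*, and *Lef1*, a DNA-binding partner of β-catenin. A value at the floor means 20 or fewer scaled counts, so low expression of these genes was not detectable at this depth and is not shown to be absent. The 8 negative control probes gave 3 to 20 counts, and at most 22.1 after scaling.

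The other 20 members were above the floor in at least 1 sample. Of these, 15 were above it in all 3 samples of some group, and 10 in all 12 samples. The receptors above the floor in all 12 were *Fzd2*, *Fzd3* and *Fzd7*, the ligands were *Wnt7b* and *Wnt10a*, and the components were *Apc*, *Axin1*, *Amer1*, *Ctnnb1* and *Rnf43*. AKT/NRAS had 11 members above the floor in all 3 samples of each treatment and AKT Cre/NRAS had 13. The 5 members seen only in scattered samples stayed near the floor. *Wnt4* reached deposited values of 20.5 to 28.6 in 3 AKT/NRAS samples, *Wnt11* 23.2 to 26.6 in 3 AKT/NRAS samples, and *Wif1*, a secreted Wnt antagonist, 23.2 in 1 AKT/NRAS sample. *Fzd8* reached 21.7 to 26.0 in 3 AKT Cre/NRAS samples and *Fzd10* 26.7 and 40.7 in 2 AKT Cre/NRAS SCR samples.

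**Figure D1:**
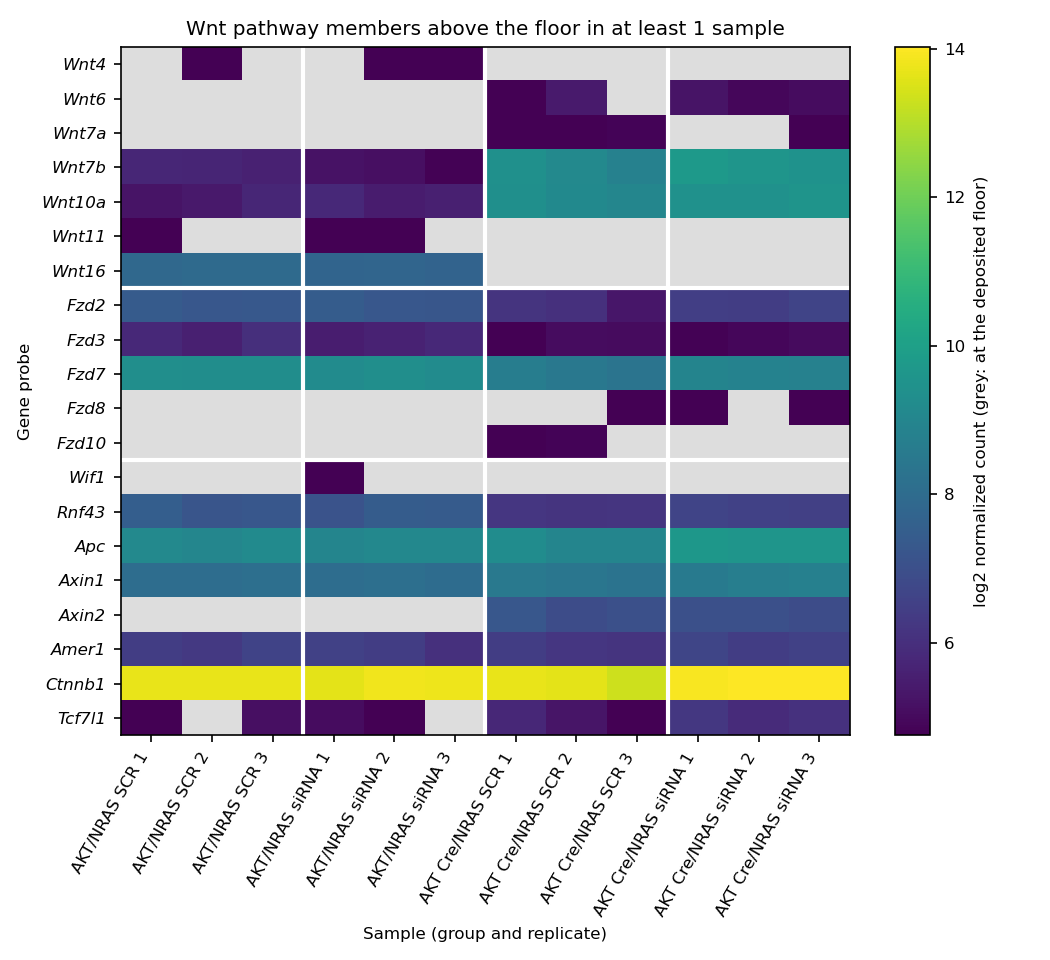
Levels of the 20 members above the floor in at least 1 sample (rows, in the order ligands, receptors, other components) in the 12 samples (columns, by group and replicate), as log2 normalized counts, with grey for values at the deposited floor. *Wnt16* is coloured only in the 6 AKT/NRAS samples and *Axin2* only in the 6 AKT Cre/NRAS samples, while *Ctnnb1* is the brightest row in every sample.

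The first question is how the lines differed. The clearest contrasts between AKT Cre/NRAS and AKT/NRAS were in the ligands and in *Axin2*. *Wnt7b* and *Wnt10a* were higher in AKT Cre/NRAS by more than 3 on the log2 scale, *Axin2* was measured only there, and *Wnt16* was measured only in AKT/NRAS. Each contrast was seen under SCR and under *Dusp4* siRNA, which are separate sets of 6 samples, although each shares 1 group with each comparison of siRNA and SCR. Because whole cultures were measured, a change in the number of expressing cells and a change in RNA per cell cannot be told apart.

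*Wnt7b* encodes a ligand known from epithelial tissues and lung development. Its normalized counts were 54.1, 52.2 and 48.7 in AKT/NRAS SCR and 683, 556 and 453 in AKT Cre/NRAS SCR. After siRNA they were 37.2, 35.5 and 28.3 in AKT/NRAS and 867, 779.6 and 720.2 in AKT Cre/NRAS. All 6 AKT Cre/NRAS samples lay far above all 6 AKT/NRAS samples, in which the level stood just over the floor. The log2 fold change between the lines was 3.40 under SCR (standard error 0.15, limma adjusted p = 1.98e-07) and 4.51 under siRNA (standard error 0.12, limma adjusted p = 5.06e-08).

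*Wnt10a*, a ligand known from the development of teeth, hair and skin, behaved alike between the lines. It was at 37.7, 41.7 and 54.5 in AKT/NRAS SCR and at 662, 566 and 516 in AKT Cre/NRAS SCR. After siRNA the levels were 57.0, 43.9 and 47.2 in AKT/NRAS and 703, 703 and 759.9 in AKT Cre/NRAS. Again no AKT Cre/NRAS sample came near the AKT/NRAS range. The log2 fold change was 3.68 under SCR (standard error 0.16, limma adjusted p = 1.74e-07) and 3.85 under siRNA (standard error 0.10, limma adjusted p = 5.2e-08).

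*Wnt16*, a ligand known from bone and from the specification of blood stem cells, had the opposite pattern. It was at 235, 250.4 and 248 in AKT/NRAS SCR, at 216, 219 and 208 in AKT/NRAS siRNA, and at the floor in all 6 AKT Cre/NRAS samples. Its level in AKT Cre/NRAS was therefore at least 9.03-fold lower under SCR and at least 7.92-fold lower under siRNA, measured against the floor of 27.1. The limma adjusted p was 2.47e-08 and 1.4e-08. *Wnt16* entered the tests of the lines only through the line in which it was measured, as did *Axin2*, *Wnt6*, *Wnt7a*, *Fzd10* and *Wnt4*. These members therefore had to be higher there. In a group at the floor all values are equal, so these p-values do not reflect the spread of that group and are not read as support.

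*Wnt6* and *Wnt10a* lie next to each other on chromosome 1 of the mouse genome (GRCm38.p6), with 6696 bases and 0 annotated genes between them. *Wnt6* was at the floor in all 6 AKT/NRAS samples. Its deposited values were 29.9, 61.0 and 20 in AKT Cre/NRAS SCR and 36.0, 33.2 and 40.6 in AKT Cre/NRAS siRNA. It was thus low but above the floor in 5 of 6 AKT Cre/NRAS samples. Under siRNA the AKT Cre/NRAS level was at least 1.26-fold higher (limma adjusted p = 0.00889, and 0.0769 after re-centring on the median), and under SCR the difference was within the spread of the samples (log2 fold change 0.22, limma adjusted p = 0.268). *Wnt7a*, a further ligand at the edge of detection, had deposited values of 27.7, 26.7 and 26.9 in AKT Cre/NRAS SCR and 29.1 in 1 AKT Cre/NRAS siRNA sample, and was at the floor in the other 8 samples. Its log2 fold change between the lines under SCR was 0.03 (limma adjusted p = 0.728) once these values had been raised to the common floor, and 0.42 with the values as deposited (limma adjusted p = 0.0115). Being at the floor in AKT/NRAS, *Wnt7a* could only come out higher in AKT Cre/NRAS.

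*Axin2* encodes a scaffold of the destruction complex, and its transcription is a widely used readout of β-catenin activity. It was at the floor in all 6 AKT/NRAS samples. In AKT Cre/NRAS its normalized counts were 156, 120.0 and 130.4 under SCR and 129, 130.3 and 119 under siRNA. Every AKT Cre/NRAS sample was thus well above the floor, with at least 116 recovered counts. Against AKT/NRAS, the level in AKT Cre/NRAS was at least 5.01-fold higher under SCR (limma adjusted p = 4.25e-07) and at least 4.66-fold higher under siRNA (limma adjusted p = 6.89e-08). The direction was fixed by the floor, and the AKT/NRAS values set to it have no spread, so these p-values are not read as support. Over 6 ways of scaling the values, the bound under SCR ran from 3.76-fold to 7.80-fold.

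The DNA ahead of the start of *Axin2*, *Wnt16* and *Wnt6*, which went from the floor to a measured level between the lines, is shown for reference. Each run holds 200 bases on the plus strand, from 250 to 51 bases before an annotated RefSeq start (GRCm38.p6), at chr11:108920099-108920298 for *Axin2*, chr6:22287977-22288176 for *Wnt16* and chr1:74771642-74771841 for *Wnt6*. Capitals mark the letters of a GC box (GGGCGG) or a CCAAT box on either strand.
Axin2: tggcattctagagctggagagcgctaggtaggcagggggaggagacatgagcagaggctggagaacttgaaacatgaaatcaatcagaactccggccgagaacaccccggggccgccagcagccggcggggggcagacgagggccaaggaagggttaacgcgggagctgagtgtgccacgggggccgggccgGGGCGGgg
Wnt16: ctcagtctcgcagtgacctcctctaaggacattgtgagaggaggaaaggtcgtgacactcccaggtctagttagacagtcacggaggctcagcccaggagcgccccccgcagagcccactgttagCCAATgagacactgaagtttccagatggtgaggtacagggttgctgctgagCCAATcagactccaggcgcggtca
Wnt6: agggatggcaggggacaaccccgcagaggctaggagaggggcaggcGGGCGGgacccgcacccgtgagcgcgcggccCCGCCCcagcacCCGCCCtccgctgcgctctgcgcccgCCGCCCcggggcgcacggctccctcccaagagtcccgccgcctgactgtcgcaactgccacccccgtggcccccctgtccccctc
The *Axin2* run held 1 GC box, the *Wnt6* run 4 GC boxes, and the *Wnt16* run 2 CCAAT boxes and no GC box. Among all 32851 such windows of the genome, 24.6% held a GC box and 28.4% a CCAAT box. The letters CTTTGAA or CTTTGAT, a common form of the TCF/LEF site, were in 6.3% of all windows and in none of these 3, and the AP-1 letters TGANTCA were in 5.57% of all windows and in none of these 3. A match describes the letters of the window only, and the lack of one says nothing of sites elsewhere.

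**Figure D2:**
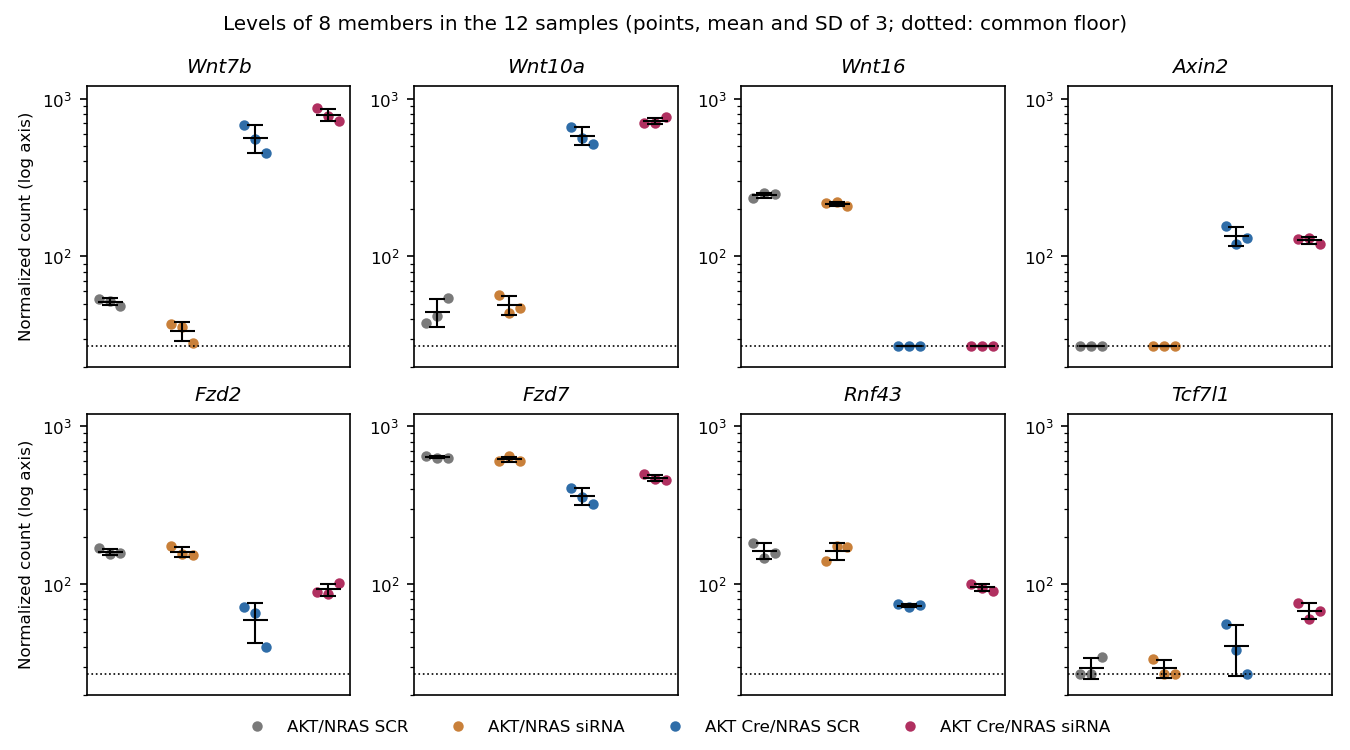
Normalized counts (log axis) of 8 members in the 4 groups, with 1 point per sample, the mean and SD of 3 samples, and the common floor of 27.1 as a dotted line. *Wnt7b*, *Wnt10a* and *Axin2* are higher in AKT Cre/NRAS, *Wnt16* sits on the floor there, and *Fzd2*, *Fzd7* and *Rnf43* are lower there.

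The 3 receptors above the floor in all 12 samples went the other way, whereas *Fzd8* and *Fzd10* were above it only in AKT Cre/NRAS samples. *Fzd2*, *Fzd3* and *Fzd7* bind Wnt ligands at the cell surface, and *Fzd7* is the family member often studied in liver cancer. All 3 were lower in AKT Cre/NRAS than in AKT/NRAS under both treatments, with no overlap of the groups. Of all genes tested, 79.8% under SCR and 76.6% under siRNA did not overlap, and 48% and 37.9% were called lower. *Fzd2* was at 169, 155 and 158 in AKT/NRAS SCR, at 173, 156 and 153 in AKT/NRAS siRNA, at 71.6, 65.4 and 40.1 in AKT Cre/NRAS SCR and at 89.3, 86.8 and 102 in AKT Cre/NRAS siRNA. The AKT/NRAS samples were tight, and the lowest AKT Cre/NRAS sample was SCR replicate 3. The log2 fold change of *Fzd2* was -1.47 under SCR (standard error 0.20, limma adjusted p = 0.000177) and -0.79 under siRNA (standard error 0.09, limma adjusted p = 0.00013).

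*Fzd7* was at 645, 627 and 632 in AKT/NRAS SCR, at 603, 647 and 599.8 in AKT/NRAS siRNA, at 407, 355 and 321 in AKT Cre/NRAS SCR and at 497, 461 and 459 in AKT Cre/NRAS siRNA. Its log2 fold change between the lines was -0.82 under SCR (standard error 0.10, limma adjusted p = 9.15e-05) and -0.38 under siRNA (standard error 0.05, limma adjusted p = 0.000415). Under SCR the *Fzd7* difference ran from -1.24 to -0.31 over the 6 scalings and missed the threshold in 1 of them, the values as deposited (limma adjusted p = 0.346). *Fzd3* was close to the floor, at 47.5 to 63.8 in AKT/NRAS SCR, 45.4 to 56.6 in AKT/NRAS siRNA, 27.1 to 33.1 in AKT Cre/NRAS SCR and 27.9 to 32.8 in AKT Cre/NRAS siRNA. Its log2 fold change was -0.84 under SCR (limma adjusted p = 0.00043) and -0.72 under siRNA (limma adjusted p = 0.000335), and the first was not past the threshold with the values as deposited (limma adjusted p = 0.0971).

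*Rnf43* encodes a ubiquitin ligase that clears Frizzled receptors from the cell surface and is itself known as a target of the pathway in the intestine. It was at 184, 147 and 157 in AKT/NRAS SCR, at 139.6, 175 and 172 in AKT/NRAS siRNA, at 74.4, 71.6 and 73.6 in AKT Cre/NRAS SCR and at 100.4, 94.7 and 90.6 in AKT Cre/NRAS siRNA. The lines did not overlap under either treatment. The log2 fold change was -1.13 under SCR (standard error 0.11, limma adjusted p = 2.39e-05) and -0.76 under siRNA (standard error 0.10, limma adjusted p = 0.000361). *Axin2* and *Rnf43*, both negative regulators that β-catenin is known to induce, thus had opposite directions between the lines.

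β-catenin and the scaffolds of the destruction complex follow. *Ctnnb1* had 13332 to 13585 normalized counts in AKT/NRAS SCR, 12789 to 14428 in AKT/NRAS siRNA, 10149.7 to 13347 in AKT Cre/NRAS SCR and 15476 to 16636 in AKT Cre/NRAS siRNA. Under SCR the lines overlapped (log2 fold change -0.17, 95% interval -0.43 to 0.10, limma adjusted p = 0.222), and under siRNA the AKT Cre/NRAS samples lay higher (0.24, standard error 0.05, limma adjusted p = 0.00516, and 0.0911 after quantile normalization). *Apc*, the tumour suppressor of the complex, was likewise highest in AKT Cre/NRAS siRNA, at 519 to 579 in AKT/NRAS SCR, 508 to 548 in AKT/NRAS siRNA, 503 to 614 in AKT Cre/NRAS SCR and 765 to 813 in AKT Cre/NRAS siRNA. Its log2 fold change between the lines was -0.03 under SCR (95% interval -0.26 to 0.21, limma adjusted p = 0.818) and 0.56 under siRNA (standard error 0.05, limma adjusted p = 2.62e-05). After re-centring, *Apc* was higher in AKT Cre/NRAS under SCR as well (0.33, limma adjusted p = 0.00636), and after quantile normalization so was *Ctnnb1* (0.37, limma adjusted p = 0.000205). *Axin1*, the scaffold that is made constitutively, was at 266 to 279.6, 263 to 284, 314 to 359.8 and 386 to 442 in the same order of groups. It was higher in AKT Cre/NRAS by 0.30 under SCR (limma adjusted p = 0.0146) and by 0.61 under siRNA (limma adjusted p = 0.000116), but the first difference was -0.12 with the 5 reference genes ranked first, and its limma adjusted p was then 0.687. *Amer1*, an X-linked adaptor that recruits the complex to the membrane, was at 65.2 to 98.6 in AKT/NRAS and 71.3 to 103 in AKT Cre/NRAS and passed in neither comparison of the lines.

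*Tcf7l1* encodes a TCF factor known mainly as a repressor of pathway targets. It was on the common floor in 2 of 3 samples of each AKT/NRAS group, with 34.8 in the remaining SCR sample and 33.7 in the remaining siRNA sample. In AKT Cre/NRAS it was at 55.6, 38.5 and 27.1 under SCR and at 75.9, 60.2 and 67.3 under siRNA. The AKT Cre/NRAS siRNA samples were thus the highest, and the SCR samples of that line spread from the floor upwards. The log2 fold change between the lines was 1.18 under siRNA (standard error 0.12, limma adjusted p = 5.63e-05) and 0.38 under SCR (95% interval -0.15 to 0.92, limma adjusted p = 0.162).

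In counts, 16 members were above the common floor of 27.1 in at least 1 of the samples compared under SCR and were tested. Of these, AKT Cre/NRAS had 4 at a higher level (*Wnt7b*, *Wnt10a*, *Axin1*, *Axin2*) and 5 at a lower one (*Wnt16*, *Fzd2*, *Fzd3*, *Fzd7*, *Rnf43*), where 76.9% of the 515 genes tested changed, 28.9% upwards and 48% downwards. The groups did not overlap for 9 of the 16 members, against 79.8% of all genes tested. Under siRNA, 8 of 15 members were higher (*Wnt6*, *Wnt7b*, *Wnt10a*, *Apc*, *Axin1*, *Axin2*, *Ctnnb1*, *Tcf7l1*) and the same 5 were lower, where 74.5% of 522 genes changed, 36.6% upwards and 37.9% downwards. Here 13 of 15 did not overlap, against 76.6% of all genes tested. The median log2 fold change of the members was -0.00070 under SCR and 0.24 under siRNA, and that of all genes tested was -0.22 and -0.00050. With most of the panel changed, these counts are not read as a result about the pathway. Over the 6 scalings, *Wnt7b*, *Wnt10a*, *Fzd2* and *Rnf43* kept their call and direction in both comparisons of the lines, and also without any single library. The direction of *Axin2* and *Wnt16* is fixed by the floor in any setting and is no sign of stability.

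**Figure D3:**
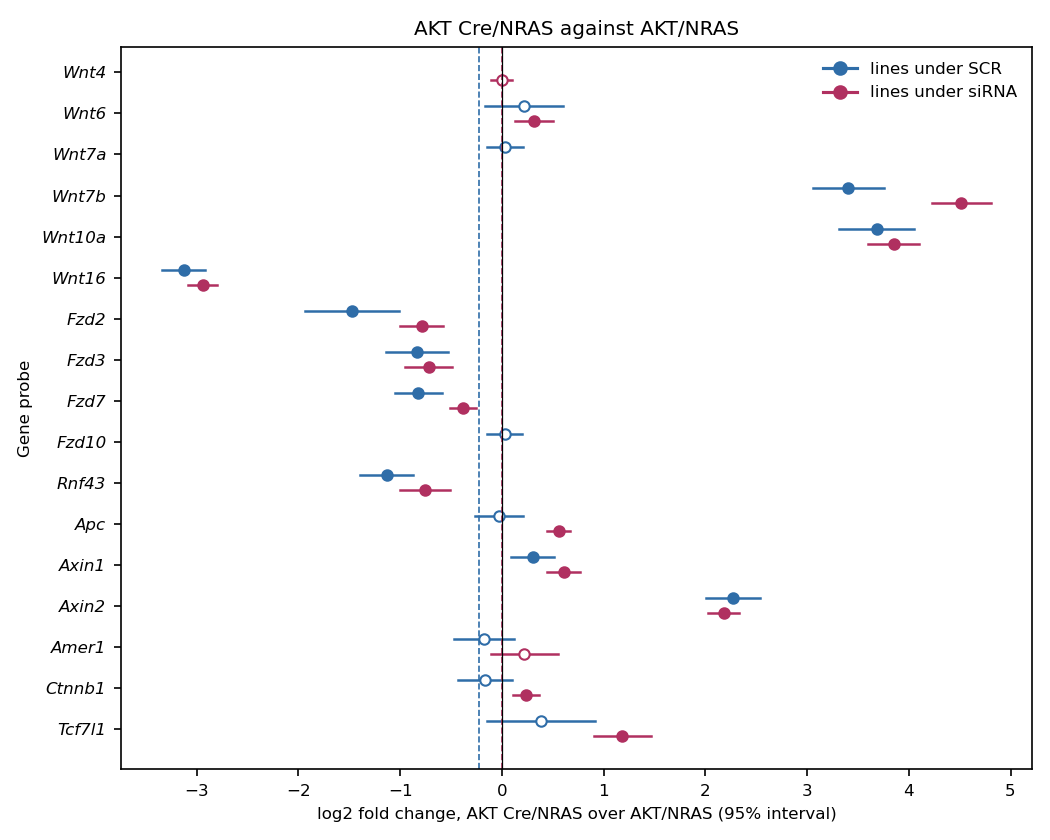
Log2 fold change of AKT Cre/NRAS over AKT/NRAS with its 95% interval, under SCR (blue) and under *Dusp4* siRNA (red), for the members tested, with filled points for an adjusted p under 0.05 and dashed lines for the median of all genes tested. *Wnt7b* and *Wnt10a* lie above 3 and *Wnt16* near -3 under both treatments, and *Fzd2*, *Fzd3*, *Fzd7* and *Rnf43* lie below 0 under both. Values of *Axin2*, *Wnt16*, *Wnt6*, *Wnt7a*, *Fzd10* and *Wnt4* are fitted against the floor and are not bounds.

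The second question is what *Dusp4* siRNA did within each line. In AKT Cre/NRAS, 9 of 15 members tested rose and none fell, where 45.9% of the 503 genes tested changed, 40.6% upwards and 5.37% downwards. The groups did not overlap for 10 of the 15 members, against 60% of all genes tested, and the median log2 fold change was 0.32 for the members and 0.23 for all genes tested. The members that rose were the ligands *Wnt7b* (0.50, limma adjusted p = 0.0194) and *Wnt10a* (0.32, limma adjusted p = 0.0341), the receptors *Fzd2* (0.68, limma adjusted p = 0.0209) and *Fzd7* (0.39, limma adjusted p = 0.0196), and the receptor ligase *Rnf43* (0.37, limma adjusted p = 0.0275). In the cell they were joined by *Apc* (0.54, limma adjusted p = 0.00444), *Axin1* (0.30, limma adjusted p = 0.0383), *Ctnnb1* (0.43, limma adjusted p = 0.0183) and *Tcf7l1* (0.79, limma adjusted p = 0.0185). *Axin2* had a log2 fold change of -0.09 (95% interval -0.39 to 0.20, limma adjusted p = 0.587), and the groups overlapped. *Amer1* (0.28, limma adjusted p = 0.103), *Wnt6* (0.10, limma adjusted p = 0.682) and *Fzd3* (-0.02, limma adjusted p = 0.926) did not pass either.

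These rises depended on the scaling and on single libraries. With the values as deposited, 0 of 16 members passed limma after adjustment and 3 had an unadjusted p under 0.05. Over the whole panel, 1 gene passed there, against 231 in the main scaling. After re-centring on the median, 1 member passed, and that was *Axin2*, which was lower after siRNA by -0.45 on the log2 scale. In that setting 168 genes of the panel passed. Without siRNA replicate 1, 2 or 3 the count of members was 1, 3 and 2, without SCR replicate 2 it was 3, and *Apc* alone passed without each of the 6 libraries. Over the panel the counts were 99, 121, 118 and 131 in the same order.

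In AKT/NRAS, 1 of 13 members tested changed after siRNA, where 17.3% of the 496 genes tested changed, 5.44% upwards and 11.9% downwards. That member was *Wnt7b*, which fell (log2 fold change -0.61, standard error 0.11, limma adjusted p = 0.0111). Its recovered counts were 56, 45 and 42 in SCR and 32, 38 and 33 in siRNA, so the lowest SCR count exceeded the highest siRNA count, and the negative controls gave up to 20. The deposited values overlapped, with 36.0 as the lowest in SCR and 37.5 as the highest in siRNA. The groups did not overlap for *Wnt7b* and *Wnt16*, against 34.7% of all genes tested. For *Wnt16* the log2 fold change was -0.19, with a standard error of 0.06 (limma adjusted p = 0.0777). The remaining 11 members ranged from -0.14 (*Fzd3*) to 0.15 (*Wnt10a*), and the median was -0.01 for the members and -0.03 for all genes tested. For *Apc* the 95% interval was -0.18 to 0.09, for *Ctnnb1* -0.08 to 0.13 and for *Fzd7* -0.15 to 0.06. With the values as deposited, the whole panel moved up, with 290 genes called and a median of 0.30 over all genes tested. There, 7 members were higher after siRNA and *Wnt7b* was at -0.28 (limma adjusted p = 0.0788).

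**Figure D4:**
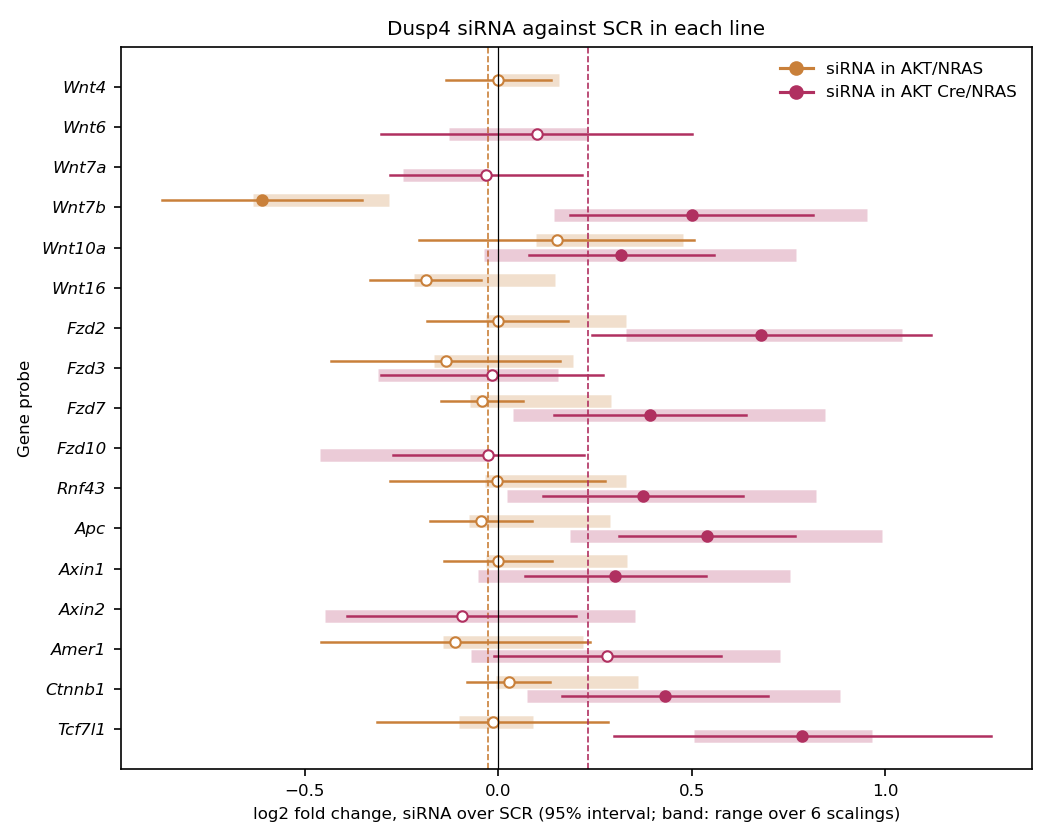
Log2 fold change of *Dusp4* siRNA over SCR with its 95% interval in AKT/NRAS (orange) and AKT Cre/NRAS (red), with filled points for an adjusted p under 0.05, bands for the range over 6 scalings, and dashed lines for the median of all genes tested. *Wnt7b* lies at -0.61 in AKT/NRAS and at 0.50 in AKT Cre/NRAS, and many of the AKT Cre/NRAS bands reach down to about 0.

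The third question is whether the lines responded differently to *Dusp4* siRNA. The difference of the responses, AKT Cre/NRAS minus AKT/NRAS, passed limma's interaction test for 7 of 17 members, all with the higher value in AKT Cre/NRAS, where 45.3% of the 525 genes tested passed, 40.6% upwards and 4.76% downwards. *Wnt7b* had the largest difference of the 17 (1.11, standard error 0.21, limma adjusted p = 0.00305). In the main scaling it was the member with a change in both lines, downwards in AKT/NRAS and upwards in AKT Cre/NRAS, the latter past the threshold in 3 of 6 scalings. Its difference was past the threshold in 5 of 6 scalings, over which it ran from 0.70 to 1.59, and without any single library. With the values as deposited it was not (limma adjusted p = 0.218). Next in size were *Tcf7l1* with 0.80 (standard error 0.30, limma adjusted p = 0.0477), *Fzd2* with 0.68 (standard error 0.24, limma adjusted p = 0.0422) and *Apc* with 0.58 (standard error 0.11, limma adjusted p = 0.0031). Of these, *Tcf7l1* was on the common floor in 2 of 3 samples of each AKT/NRAS group.

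A ratio of 2 genes within a sample does not depend on the scaling between samples. It was taken to *Ctnnb1*, the member with the highest count, on the deposited values. This measure was chosen after the values had been seen and is given as a description, for members that no sample of a comparison had at the floor. It was not taken for the other genes of the panel. Counts of members that separated therefore have no panel share beside them and are not read as a result. In AKT Cre/NRAS, the log2 ratio of *Axin2* to *Ctnnb1* was -6.48 ± 0.24 (SD, n = 3) under SCR and -7.01 ± 0.11 (SD, n = 3) after siRNA, a difference of -0.53 with no overlap. In the main scaling most of it lay in the denominator, since *Ctnnb1* rose by 0.43 and *Axin2* itself had a log2 fold change of -0.09. This split depends on the scaling. Over the 6 scalings *Ctnnb1* ran from 0.08 to 0.88 and *Axin2* from -0.45 to 0.35. *Axin2* was the 1 of 11 members whose ratio separated the groups there, and the ratio of *Wnt7b* differed by 0.07 with overlap. In AKT/NRAS the ratio of *Wnt7b* was -8.03 ± 0.06 (SD, n = 3) under SCR and -8.68 ± 0.26 (SD, n = 3) after siRNA, a difference of -0.65 with no overlap. *Wnt16* was the other of 10 members that separated, with a difference of -0.21. For the members that had risen in AKT Cre/NRAS, the ratios of the treatments overlapped.

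**Figure D5:**
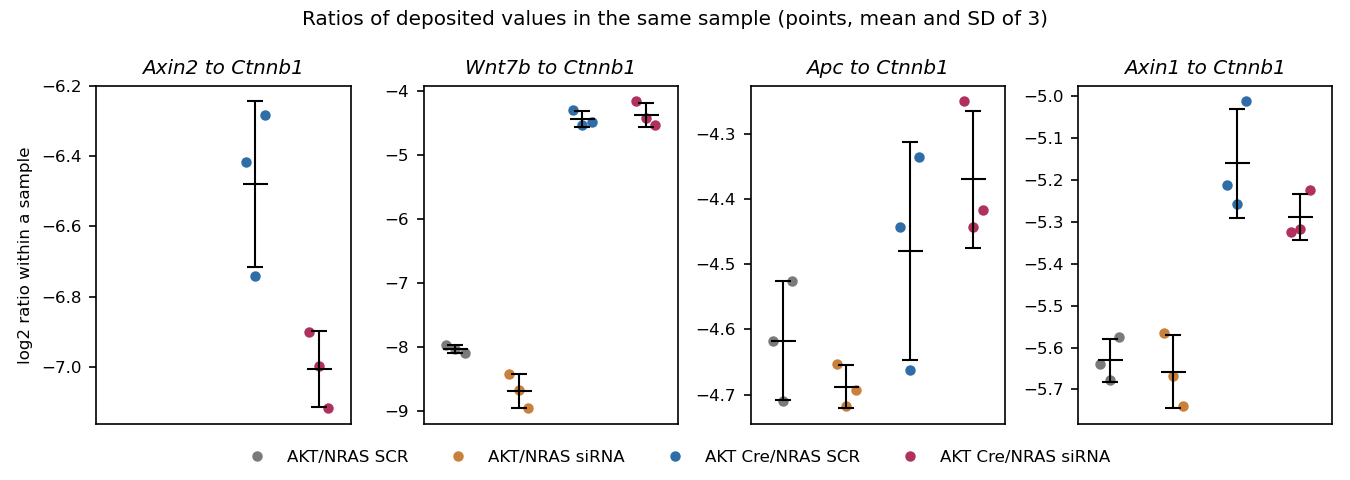
Log2 ratio of *Axin2*, *Wnt7b*, *Apc* and *Axin1* to *Ctnnb1* within each sample, from the deposited values, with 1 point per sample and the mean and SD of 3 samples for each group (each panel has its own axis, and *Axin2* has no ratio in AKT/NRAS, where it was at the floor). The *Axin2* ratio is lower after siRNA in AKT Cre/NRAS, where *Ctnnb1* rose in the main scaling. The *Wnt7b* ratio is lower after siRNA in AKT/NRAS, and the *Apc* ratios of the treatments overlap within each line.

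Between the lines, the same ratio differs from the log2 fold changes above mainly by the change of *Ctnnb1* itself, so the order of the members is nearly fixed, and the ratios add only whether the groups overlap. Under SCR, *Wnt7b*, *Wnt10a* and *Axin1* were higher relative to *Ctnnb1* in AKT Cre/NRAS, *Fzd2*, *Fzd3*, *Fzd7* and *Rnf43* were lower, and *Apc* and *Amer1* overlapped. Under siRNA, *Apc* joined those that were higher. The differences under SCR were 3.59 for *Wnt7b*, 3.88 for *Wnt10a* and 0.47 for *Axin1*, and -1.32 for *Fzd2*, -0.71 for *Fzd3*, -0.66 for *Fzd7* and -0.98 for *Rnf43*.

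Other genes of the pathway were followed by list. Of 28 further genes of Wnt signal transduction, 10 were on the panel and all 10 were tested in the lines under SCR. There, AKT Cre/NRAS had 1 at a higher and 7 at a lower level, where 28.9% and 48% of all genes tested were higher and lower. The higher one was *Gpc4*, a cell-surface proteoglycan, which was at the floor in AKT/NRAS. Among the lower were *Gsk3b*, the kinase of the destruction complex (log2 fold change -1.46, limma adjusted p = 1.42e-06), *Dvl1* (-1.25, limma adjusted p = 6.07e-06) and *Dvl3* (-0.98, limma adjusted p = 9.24e-05), the adaptors that receive the signal from Frizzled, and *Map3k7* (-1.15, limma adjusted p = 1.24e-05), a kinase. After siRNA in AKT Cre/NRAS, 6 of the 10 rose and 1 fell, against 40.6% and 5.37% of all genes tested. The rises included the β-catenin co-activators *Crebbp* (0.71, limma adjusted p = 0.00329) and *Ep300* (0.70, limma adjusted p = 0.00329) and the kinase *Gsk3b* (0.58, limma adjusted p = 0.00355). *Skp1a*, a part of the ubiquitin ligase that removes β-catenin, fell by 0.54 (limma adjusted p = 0.0204). In AKT/NRAS, 1 of 9 changed, against 17.3% of all genes tested, which was a fall of *Ep300* by 0.14 (limma adjusted p = 0.0267).

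Of 17 genes known as TCF/LEF targets in some tissues, 14 were on the panel and 12 were tested. Under SCR, AKT Cre/NRAS had 6 at a higher and 3 at a lower level, where 28.9% and 48% of all genes tested were higher and lower. Under siRNA 9 were higher and 3 were lower, where 36.6% and 37.9% of all genes tested were. The TCF/LEF targets that differed most went in both directions under SCR. *Fst*, an inhibitor of activin, was higher (3.21, limma adjusted p = 4.23e-08) and had a mean of 30.0 in AKT/NRAS, close to the floor. *Fosl1*, an AP-1 subunit, was higher (1.40, limma adjusted p = 7.42e-06), as was *Bmp4* (0.81, limma adjusted p = 3.26e-05). *Jun* (-3.40, limma adjusted p = 4.4e-08), the cyclin *Ccnd2* (-2.13, limma adjusted p = 1.69e-07) and *Id2* (-1.16, limma adjusted p = 4.39e-06) were lower. After siRNA, 7 of the 12 rose and none fell in AKT Cre/NRAS, where 40.6% of all genes tested rose, and 2 rose and 3 fell in AKT/NRAS, where 5.44% rose and 11.9% fell. In AKT/NRAS the falls were *Fosl1* (-0.41, limma adjusted p = 0.00916), *Jun* (-0.35, limma adjusted p = 0.00916) and *Vegfa* (-0.22, limma adjusted p = 0.00816), and the rises were *Jag1* (0.26, limma adjusted p = 0.00372) and *Ccnd2* (0.17, limma adjusted p = 0.0176). The median of the 12 was 0.38 in AKT Cre/NRAS and -0.10 in AKT/NRAS, against 0.23 and -0.03 for all genes tested.

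Of 24 genes of the calcium and JNK branches, through which Wnt ligands act without β-catenin, 19 were on the panel and 6 of these were at the floor in all 12 samples. Under SCR, AKT Cre/NRAS had 2 of 11 at a higher and 7 at a lower level, the lowest being *Prkca*, a calcium-dependent protein kinase C (-2.04, limma adjusted p = 3.13e-06). Of all genes tested, 76.9% changed there, so the share is near that of the panel. After siRNA, 4 of 11 rose and 1 fell in AKT Cre/NRAS, where 45.9% of all genes tested changed. *Prkca* rose by 0.70 (limma adjusted p = 0.00533). The JNK genes went in opposite directions, *Mapk9* with 0.47 (limma adjusted p = 0.00656) and *Mapk8* with -0.35 (limma adjusted p = 0.0257). In AKT/NRAS 1 of 12 changed, against 17.3% of all genes tested, which was a fall of *Prkca* by 0.25 (limma adjusted p = 0.0382).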

How the data were processed

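The 12 samples were measured on the NanoString® Mouse PanCancer Pathways panel from 100 ng of total RNA each. Scans were processed in nSolver by the authors, who deposited 1 signal for each probe. By its values, this signal is the barcode count multiplied by a positive control factor of the sample (0.827 to 1.27), after which anything not above 20 was replaced by 20. The control probes of the deposited table carry raw counts. Columns were matched to samples by the run number in the labels. Counts above the floor were recovered as whole numbers (100% within 0.05), but 252 to 293 genes a sample have no known count because they are floored, and no count model was fitted. Intervals cover the spread of these samples only.

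Values were scaled to the 15 of 20 reference genes kept by geNorm over all 12 samples, raised to a common floor of 27.1, and tested as log2 after adding 1 with limma 3.58.1 (R 4.3.3), using lmFit and a two-sided eBayes with intensity trend, on all genes above the common floor in at least 1 sample of the comparison. Benjamini-Hochberg adjustment ran over all of these genes, with a threshold of 0.05. Each comparison was fitted to its own 6 samples, and the interaction to all 12. No replicate block was used in these main tests, so samples were treated as unpaired. With 3 samples against 3, an exact permutation test cannot go below a p of 0.1. A fold against a group at the floor is given as at least the mean of the other group over the floor. The scripts were tested on simulated data with known changes.

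The 6 scalings were the main one, the values as deposited, all 20 reference genes, re-centring on the median, quantile normalization and the 5 reference genes ranked first by geNorm. The last was chosen after seeing the data, as were the ratios to *Ctnnb1*. The members and lists were chosen with earlier results of these data known. All members are named, those above the floor somewhere with values, and of each further list at most 6 genes with the smallest adjusted p of a comparison. A few marker genes are not reported here. Replicate numbers were checked for pairing over 446 genes. For siRNA in AKT Cre/NRAS, same-numbered samples deviated together (correlations 0.221, 0.116 and 0.229), so they looked paired in the data, with nothing in the labels to say so. In the siRNA comparison of AKT/NRAS (-0.078, -0.024 and -0.070) and the lines under SCR (-0.021, 0.007 and -0.049) they did not, and in the lines under siRNA they did not in all pairs (0.214, 0.027 and 0.159). RefSeq (GRCm38.p6) gave positions and promoter sequence, the latter for 25 of 37 members. Plots were made in Python 3.11.15 with matplotlib 3.10.9.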

Additional observations from a re-analysis of the deposited data

Results flagged for a closer look

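The response to *Dusp4* siRNA differed between the lines for 7 of 17 members by the interaction term of limma, as it did for 45.3% of all genes tested, so the count itself is near the panel share. The differences, AKT Cre/NRAS minus AKT/NRAS on the log2 scale, were 1.11 for *Wnt7b* (adjusted p = 0.00305), 0.80 for *Tcf7l1* (adjusted p = 0.0477), 0.68 for *Fzd2* (adjusted p = 0.0422), 0.58 for *Apc* (adjusted p = 0.0031), 0.44 for *Fzd7* (adjusted p = 0.0111), 0.40 for *Ctnnb1* (adjusted p = 0.0299) and 0.30 for *Axin1* (adjusted p = 0.0339). In the main scaling *Wnt7b* moved in opposite directions in the lines. Its rise in AKT Cre/NRAS passed in 3 of 6 scalings and in 3 of 6 fits that left out 1 library. Also in the main scaling, the other 6 rose in AKT Cre/NRAS and were between -0.04 and 0.03 in AKT/NRAS. For *Tcf7l1* the AKT/NRAS value was limited by the common floor, on which 2 of 3 samples of each AKT/NRAS group lay. These calls rest in part on the AKT Cre/NRAS SCR libraries with the spread in *Rpl19* to *Polr2a* given above, and the part of that spread was not tested. In the interaction, *Wnt7b* passed in 5 of 6 scalings, *Apc* in 4, *Fzd7* in 3, and *Axin1*, *Ctnnb1*, *Fzd2* and *Tcf7l1* in 2 each. Without any single library of the 12, *Wnt7b*, *Apc* and *Fzd7* passed in all 12 fits, *Ctnnb1* in 5, *Axin1* in 3, *Fzd2* in 3 and *Tcf7l1* in 2.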

How the results depend on the processing

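In the comparisons of the lines, the number of changed members was 8 to 11 under SCR (9 in the report) and 12 to 13 under siRNA (13 in the report) over all alternatives run, of which 8 to 10 and 13 without single libraries. The siRNA results moved more. In AKT Cre/NRAS the 9 changed members became 0 with the values as deposited (3 at an unadjusted p under 0.05 in limma), 5 with all 20 reference genes, 1 after re-centring, 1 after quantile normalization, 2 without the filter on low values and 1 with the Benjamini-Yekutieli adjustment, and 1 to 10 without single libraries. Over the panel, the 231 genes called became 1, 161, 168, 93, 56 and 70 in that order, and 99 to 297 without single libraries. In AKT/NRAS the 1 changed member became 7 with the values as deposited, none of them the one in the report, 2 without the intensity trend, and 0 without the filter or with Benjamini-Yekutieli (2 at an unadjusted p under 0.05 in limma each), and stayed 1 without single libraries. Over the panel, the 86 genes called became 290, 78, 45 and 10 in that order. The 7 interaction calls became 0 with the values as deposited (3 at an unadjusted p under 0.05 in limma), 3 with all 20 reference genes, 2 after re-centring (1 higher and 1 lower), 3 after quantile normalization (2 higher and 1 lower), 2 with Benjamini-Yekutieli, and 3 to 7 without single libraries. They were 3 without AKT/NRAS SCR replicate 1 or 3, AKT/NRAS siRNA replicate 3, or AKT Cre/NRAS siRNA replicate 2 or 3, and 4 without AKT/NRAS SCR replicate 2 or siRNA replicate 1. Over the panel, the 238 interaction calls became 32 as deposited, 210 with all 20 reference genes and 201 after re-centring. The panel calls were 184 after quantile normalization, 101 with Benjamini-Yekutieli and 176 to 307 without single libraries. The cause was not tested.

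The log2 fold change of *Dusp4* after siRNA in AKT Cre/NRAS was -0.54 with the values as deposited (limma adjusted p = 0.370), -0.45 without the filter (0.106) and with Benjamini-Yekutieli (0.121), and -0.60 to -0.35 without single libraries. With the 5 reference genes ranked first it was 0.001 (limma adjusted p = 0.997), which is no fall. In the main scaling the fall missed the threshold without siRNA replicate 1 (limma adjusted p = 0.0596), siRNA replicate 3 (0.0674) and SCR replicate 2 (0.0677).

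Some members turned direction. After siRNA in AKT Cre/NRAS, *Axin1* was at -0.053 and *Wnt10a* at -0.037 after re-centring, and *Axin1* at -0.0059 after quantile normalization. In AKT/NRAS, the values as deposited gave 0.29 for *Apc*, 0.33 for *Axin1*, 0.33 for *Fzd2*, 0.29 for *Fzd7* and 0.33 for *Rnf43*. In the lines under SCR, *Apc* was at 0.33 after re-centring and 0.29 after quantile normalization, *Ctnnb1* at 0.37 after quantile normalization, and *Axin1* at -0.12 with the 5 reference genes. In the interaction, *Axin1* and *Ctnnb1* were at -0.12 and -0.018 with the values as deposited, -0.11 and -0.0089 after re-centring, and -0.065 and -0.11 after quantile normalization. The panel moved with the scaling too. The median of all genes tested after siRNA in AKT Cre/NRAS was 0.23 in the main scaling, 0.14 as deposited, 0.16 with all 20 reference genes, -0.10 after re-centring, 0.02 after quantile normalization and 0.67 with the 5 reference genes.

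With the replicate number as a block, the counts of changed members were 9 and 1 after siRNA in AKT Cre/NRAS and AKT/NRAS, 9 and 13 in the lines under SCR and siRNA, and 6 in the interaction, and the block kept the same 9 members in AKT Cre/NRAS, where the numbers paired, and gave a *Dusp4* adjusted p of 0.000821 in limma. Depth limits the members near the floor, since values at or under 20 were replaced and carry no order.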
